A study of Mus musculus with 2 samples.

Results

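Insulin-low beta cells without interferon RNA were taken from single-cell RNA sequencing of islets. The islets came from NOD mice, which become diabetic through autoimmune loss of beta cells. They were chosen barcode by barcode. The insulin messages Ins1 and Ins2 together had to make up from 3% to under 10% of a barcode's unique molecular identifiers (UMIs, each standing for 1 captured RNA molecule). The hormone messages Gcg, Sst and Ppy each had to stay under 2%. The raw UMIs of 8 interferon-induced genes (Iigp1, Gbp4, Gbp6, Gm4841, F830016B08Rik, Rsad2, Igtp and Irgm1) had to sum to 0 or 1. With barcodes under 200 genes or above 20% mitochondrial RNA removed, 8813 were left, and 862 of them met all of these limits.

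Both groups of mice were NOD, started their diet at 5 weeks of age and ate it for 5 weeks. HAMS is a maize starch rich in amylose. HAMSAB is HAMS with acetate and butyrate bound to it, which gut microbes set free. No knockout, transgene or other treatment is labelled, the number of mice behind each library is unstated in the sources used here, and there is no group on ordinary chow. Each diet has 1 library, so the diet and its library cannot be told apart. Without replicates no difference between diets could be tested, and the 95% intervals below express counting error alone.

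Beta cells make proinsulin, fold it in the endoplasmic reticulum, cut it in secretory granules and release insulin when glucose enters and is metabolised. Their insulin genes are driven by factors such as Mafa, Pdx1 and Nkx6-1, and Ucn3 and the glucose transporter Slc2a2 mark their mature state. In NOD islets, invading immune cells release interferons, which switch on guanylate-binding proteins, immunity-related GTPases and antigen presentation. In insulin-low cells without interferon RNA, the hormone message is moderate and that response is not visible in the 8 genes counted.

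The stretch before the start of 3 genes is shown because their values recur below. They are Iapp, the islet amyloid hormone stored with insulin, Fos, an immediate early transcription factor, and Scg2, a granin of the secretory granule. Each holds the 250 bases before the gene's start on its own strand, from RefSeq on GRCm38.p6. Capitals mark TAATG, a homeodomain-type core, in Iapp (chr6:142298175-142298424, plus strand), and TGACG, the first letters of the cAMP response element, in Fos (chr12:85473640-85473889, plus strand) and Scg2 (chr1:79440027-79440276, minus strand). Both strands were searched, and overlapping matches were counted.
Iapp: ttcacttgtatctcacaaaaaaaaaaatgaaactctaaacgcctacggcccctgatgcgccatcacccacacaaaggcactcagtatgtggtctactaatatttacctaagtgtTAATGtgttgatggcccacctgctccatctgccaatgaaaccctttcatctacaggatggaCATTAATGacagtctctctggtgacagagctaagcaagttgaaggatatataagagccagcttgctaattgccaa
Fos: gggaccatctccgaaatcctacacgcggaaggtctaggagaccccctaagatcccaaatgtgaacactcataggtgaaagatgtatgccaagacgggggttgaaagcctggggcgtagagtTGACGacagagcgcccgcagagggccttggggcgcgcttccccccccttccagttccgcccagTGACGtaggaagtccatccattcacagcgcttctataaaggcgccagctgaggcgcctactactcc
Scg2: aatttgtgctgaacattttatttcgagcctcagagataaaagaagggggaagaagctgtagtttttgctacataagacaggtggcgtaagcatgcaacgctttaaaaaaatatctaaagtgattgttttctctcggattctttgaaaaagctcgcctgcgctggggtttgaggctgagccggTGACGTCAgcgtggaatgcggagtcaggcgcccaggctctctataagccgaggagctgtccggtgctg
The Iapp stretch held 3 matches to TAATG, of which the last 2 overlap. The Fos stretch held 2 separate matches to TGACG, and the 2 in Scg2 overlap on opposite strands in 1 palindrome. Among 32851 stretches of the same kind, 23.9% held TAATG and 17.8% held TGACG on either strand, so a match describes the letters and not a bound site.

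The members carried the markers of beta cells, so the label held. To set depth aside, each barcode was thinned to 500 UMIs, which left out shallower barcodes (363 of 585 HAMS members and 211 of 277 HAMSAB members were kept). Mafa, an activator of the insulin genes, was then seen in 46.8% of HAMS and 51.7% of HAMSAB members. In barcodes with under 1% insulin, of which 92.9% and 91.1% held at least 2 immune marker UMIs, it was seen in 0.211% and 0.121%. Without thinning, Mafa was seen in 49.7% and 58.5% of members against 0.454% and 0.314%, at median depths of 574 and 673 UMIs against 735 and 699.

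The other markers gave the same picture. After thinning, Nkx6-1 was seen in 17.4% and 18.5% of HAMS and HAMSAB members, Slc2a2 in 14.9% and 19.4%, and Ucn3 in 12.9% and 11.8%. In barcodes with under 1% insulin none of these 3 genes exceeded 0.323%. Iapp was seen in 90.9% and 92.9% of members against 2.18% and 2.06%, and G6pc2, a glucose-6-phosphatase of the beta cell, in 40.2% and 44.1% against 0.0704% and 0.121%. At least 1 UMI of a beta identity list of 23 genes without insulin was found in 94.4% of HAMS and 96.8% of HAMSAB members.

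**Figure D1:**
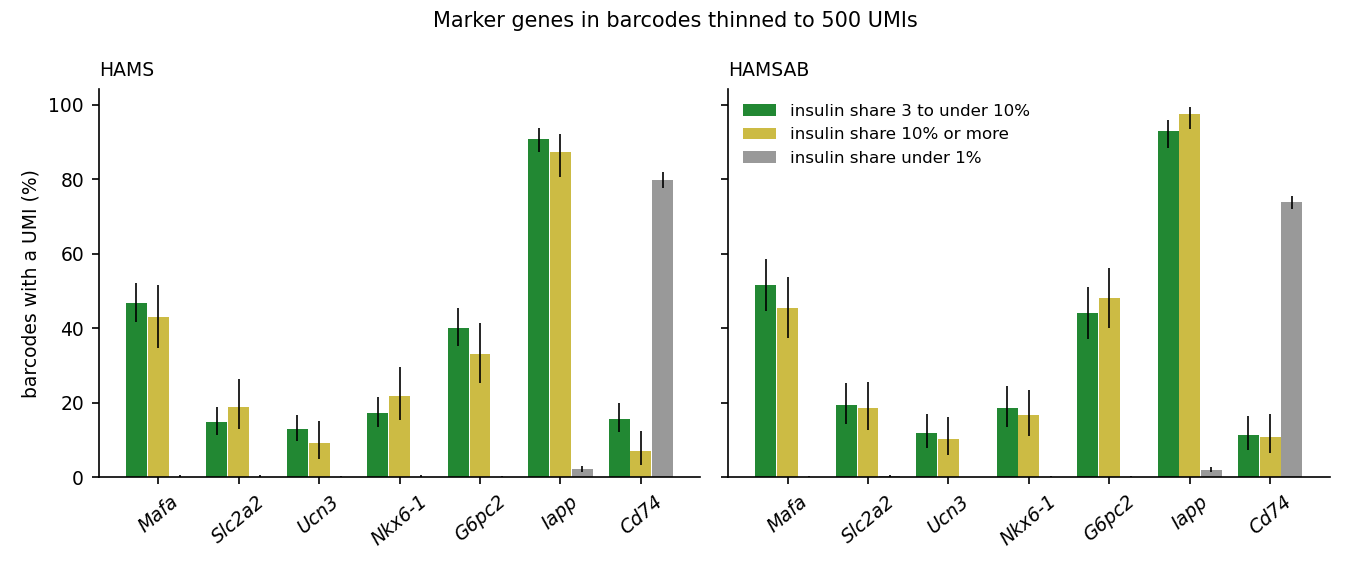
Percent of barcodes with at least 1 UMI of each marker gene, after thinning to 500 UMIs, in the HAMS and HAMSAB libraries; bars are groups by insulin share and error bars are exact 95% binomial intervals. Insulin-low members show the beta cell genes at shares close to those of barcodes with 10% insulin or more, while barcodes under 1% insulin show Cd74 and nearly none of the others.

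Insulin-low barcodes were the most common insulin-expressing barcodes in both libraries. They made up 585 of 4185 kept HAMS barcodes (14.0%, 12.9% to 15.1%) and 277 of 4628 kept HAMSAB barcodes (5.99%, 5.32% to 6.71%). These shares depend on how many immune cells each library held: barcodes under 1% insulin were 42.1% of HAMS and 68.8% of HAMSAB barcodes. Among barcodes with at least 3% insulin and the same limits on other hormones, members were 47.3% (44.5% to 50.2%) in HAMS and 38.8% (35.2% to 42.5%) in HAMSAB. Barcodes with 2 or more interferon UMIs took 34.2% and 33.8% of the same total, and insulin-rich barcodes, with 10% insulin or more and 0 or 1 interferon UMI, took 18.4% and 27.5%.

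Counted against insulin-rich barcodes alone, members were 72.0% (68.7% to 75.02%) in HAMS and 58.6% (54.0% to 63.0%) in HAMSAB. The 2 intervals did not overlap, but they express counting error over barcodes within each library. Diet and library cannot be told apart, so a difference between diets was not tested. Insulin share among members ran from 3.002% to 9.98% with a median of 6.52% in HAMS, and from 3.04% to 9.98% with a median of 6.85% in HAMSAB. Low insulin is therefore relative, since the peak of the insulin distribution lay inside the chosen range in both libraries. The insulin-rich median was 14.1% in HAMS and 15.8% in HAMSAB.

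**Figure D2:**
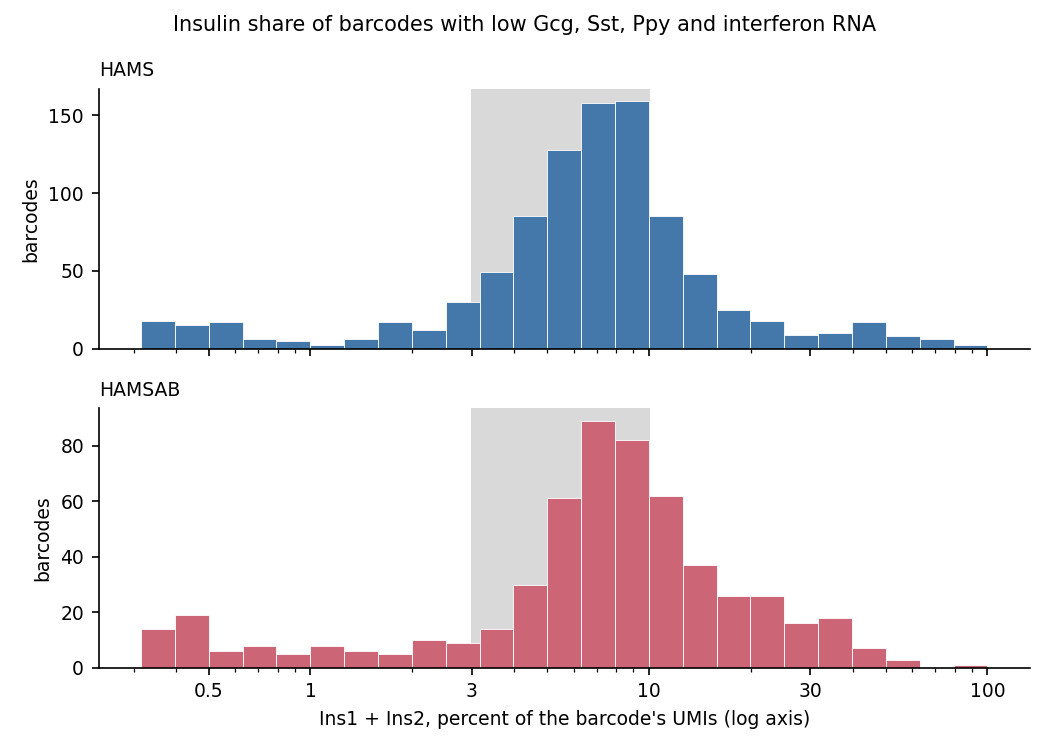
Number of barcodes by the share of Ins1 and Ins2 in their UMIs (log axis), for barcodes of each library that meet the limits on Gcg, Sst, Ppy and interferon RNA; the grey band marks 3% to 10%. In both libraries most barcodes with insulin lie inside the band, and in HAMSAB a larger share of the barcodes from 3% upwards lies to the right of it.

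The limits cut through a continuous range. Just inside the lower bound, from 3% to under 4% insulin, 59 HAMS barcodes held Mafa at 1280 CPM, the counts in 1e6 UMIs, here UMIs other than insulin, and 16 HAMSAB barcodes at 1026 CPM. Just outside it, from 2% to under 3%, 36 and 18 barcodes held 794 and 810 CPM. At the upper bound, from 9% to under 10% insulin, 81 and 34 barcodes held Mafa at 1713 and 2466 CPM, and from 10% to under 11%, 39 and 27 barcodes held 1733 and 2904 CPM. On the interferon limit, 454 HAMS and 235 HAMSAB members had 0 interferon UMIs and 131 and 42 had 1. A further 98 and 39 barcodes had 2 and fell just outside. That limit counts raw UMIs and so favours shallow barcodes: insulin barcodes with 2 or more interferon UMIs had median depths of 835 and 1119 UMIs, against 574 and 673 among members.

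Members were shallow, with a median of 365 genes in HAMS and 416 in HAMSAB, and summed to 403368 and 223903 UMIs. Mitochondrial UMIs took a median of 1.25% and 0.799%. The libraries shared 6 barcode sequences, none of them among members. A further 57 HAMS and 8 HAMSAB barcodes with insulin were left out because another islet hormone reached 2%.

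RNA of immune cells was present in a minority of members. No UMI of 25 immune markers was found in 449 HAMS members (76.8%) and 219 HAMSAB members (79.1%). At least 2 were found in 73 (12.5%) and 29 (10.5%). The summed level of the list was 1782 CPM of all UMIs in HAMS members, with Cd3d and Cd8a at 0, and 2010 CPM in HAMSAB members, with Cd3d, Fcer1g and Cd4 among 4 markers at 0. Insulin-rich barcodes held 912 and 1098 CPM. Of the 450 UMIs of the list in HAMSAB members, 149 were Jchain from 1 barcode. Cd74, the invariant chain of MHC class II, stood at 922 CPM in HAMS and 661 CPM in HAMSAB members, and up to 36 and 21 of its UMIs came from 1 barcode.

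Members with at least 2 immune UMIs differed from the others in beta cell genes as well. In HAMS their Nkx6-1 level was 277 CPM against 594 CPM with 0 or 1 immune UMI, and their Actb level, a message abundant in immune cells, was 139388 CPM against 55504 CPM. In HAMSAB the same members held Nkx6-1 at 372 against 428 CPM and Actb at 90949 against 48382 CPM. Their median insulin share was 5.29% and 6.32%, below the 6.69% and 6.96% of the others. Pairs of cells caught under 1 barcode were not called, and their part in these values was not tested.

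Other islet and pancreatic cell types left little RNA. Acinar markers, which make digestive enzymes, summed to 0 UMIs in HAMS members and 11 in HAMSAB members, and haemoglobin genes were at 0 in both. Endothelial markers summed to 9 and 0 UMIs, and delta cell markers to 298 and 237 CPM. Of 7 fibroblast and stellate markers only Rgs5 was seen, with 28 and 2 UMIs. Alpha cell markers summed to 2873 and 3104 CPM, with Irx2 and Slc38a5 at 0 in both libraries. That list holds Pcsk2, a prohormone convertase that beta cells also use. Ductal markers summed to 1282 and 1206 CPM, with Krt19 at 0 in both.

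Within the insulin-low range, Mafa was lowest and immune RNA most frequent at the lowest insulin shares. In HAMS, Mafa stood at 1398 CPM of non-insulin UMIs in the 139 members with 3% to 5% insulin, at 1765 CPM in the 199 with 5% to 7%, and at 1740 CPM in the 247 with 7% to 10%. In HAMSAB the same steps held 1392, 1655 and 2342 CPM over 45, 99 and 133 members. Nkx6-1 went from 354 to 642 and 681 CPM in HAMS, but from 528 to 459 and 410 CPM in HAMSAB, where the counting intervals of the 3 steps overlap. Members with at least 2 immune UMIs made up 24.5%, 11.1% and 6.88% of the HAMS steps and 15.6%, 13.1% and 6.77% of the HAMSAB steps.

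Iapp was nearly flat inside the range and climbed above it. In HAMS it stood at 6235, 7437 and 7391 CPM across the 3 steps, at 8182 CPM from 10% to 15% insulin, and at 26264 CPM from 30% upwards. In HAMSAB it stood at 10203, 8941 and 9517 CPM, then at 13463 CPM and at 42079 CPM. The level in HAMSAB was above that in HAMS at each of these steps. Kcnq1ot1, a noncoding transcript described below, went the other way in HAMS, from 1532 to 1300 and 661 CPM, and was at 1128, 2002 and 1040 CPM in HAMSAB. Fos stood at 3553, 4661 and 5806 CPM across the 3 HAMS steps, and at 2569, 2336 and 2847 CPM in HAMSAB.

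**Figure D3:**
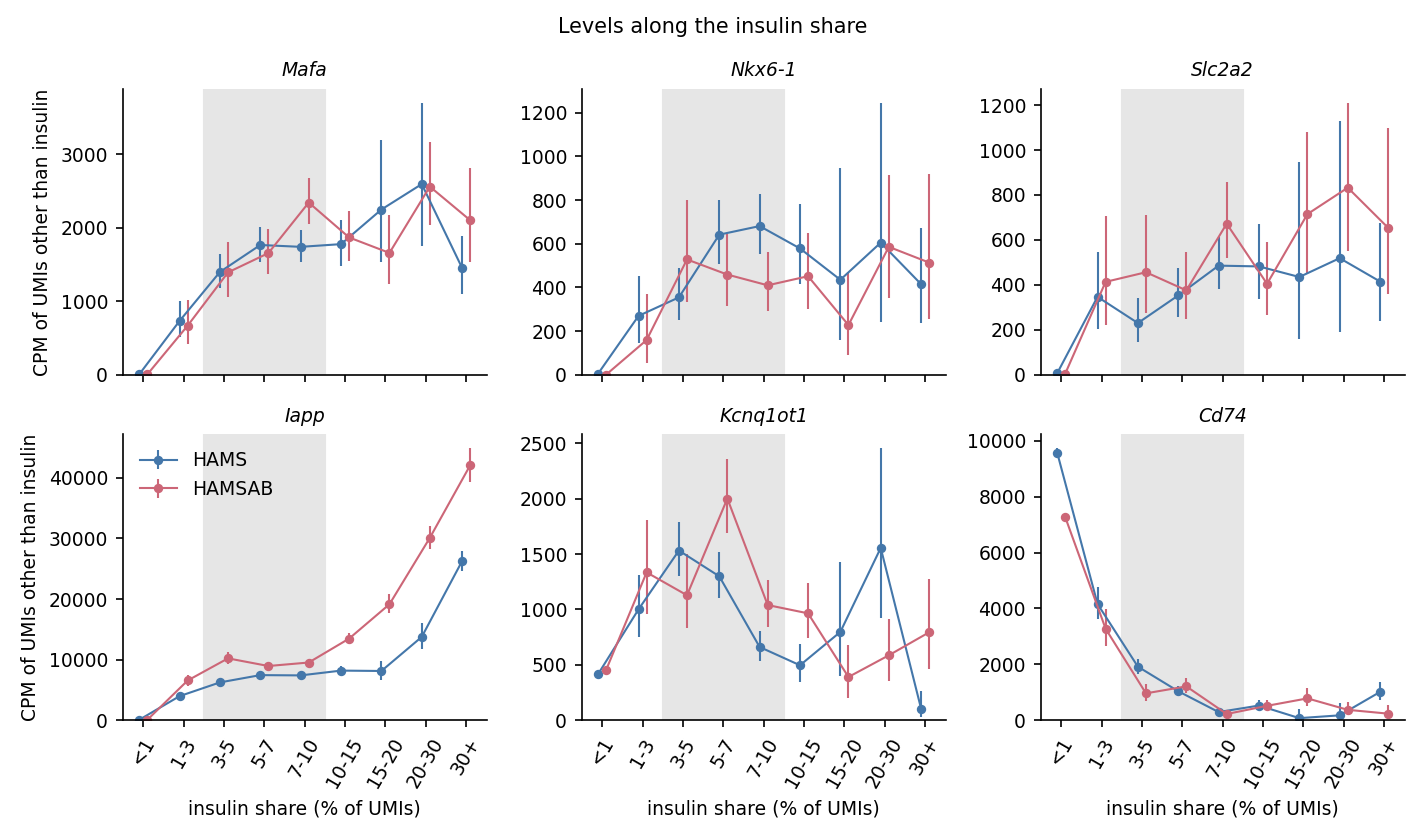
Level of 6 genes (CPM of UMIs other than insulin, each panel from 0) by insulin share of the barcode in the HAMS and HAMSAB libraries; error bars are exact 95% Poisson intervals and the grey band marks insulin-low barcodes. Mafa, Nkx6-1 and Slc2a2 lie far above their levels under 1% insulin throughout the band, Iapp is steepest to the right of it, and Cd74 is highest at the left.

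Against insulin-rich barcodes of the same library, 4 markers of beta identity lay within counting error in insulin-low cells, and the granule hormone Iapp lay below on summed UMIs. Because insulin was used to choose the groups, levels are CPM of UMIs other than Ins1 and Ins2, and the ratios describe the groups without a test. The log2 ratio of Mafa was -0.12 (-0.34 to 0.09) in HAMS and -0.07 (-0.29 to 0.15) in HAMSAB. Nkx6-1 stood at 0.15 (-0.24 to 0.56) and 0.02 (-0.45 to 0.50), Slc2a2 at -0.31 (-0.75 to 0.14) and -0.18 (-0.60 to 0.24), and Ucn3 at -0.07 (-0.57 to 0.45) and -0.23 (-0.86 to 0.40). All of these intervals include 0, which does not show that the levels were alike. G6pc2 was at -0.14 (-0.39 to 0.12) and -0.40 (-0.63 to -0.16). Of 16 beta identity genes measured, 2 were above insulin-rich barcodes in both libraries and 8 below, with medians of -0.08 in HAMS and -0.16 in HAMSAB. Iapp was at -0.96 (-1.04 to -0.87) and -1.24 (-1.32 to -1.16). In HAMS, 1013 of the 1878 insulin-rich Iapp UMIs came from the 45 barcodes with 30% insulin or more. Per barcode, the median Iapp share of all UMIs was 0.581% in HAMS members and 0.665% in HAMS insulin-rich barcodes. In HAMSAB these medians were 0.661% and 1.17%.

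Few genes were 2-fold apart in both libraries. Among 1217 genes with at least 50 UMIs in each library, members and insulin-rich barcodes summed, 1 (0.0822%) was at least 2-fold above insulin-rich barcodes in both and 9 (0.74%) were at least 2-fold below. The 1 gene above was Igha, the constant region of immunoglobulin A, with 0 UMIs in insulin-rich barcodes of either library. It rested on single members, which held 50 of its 53 HAMS UMIs and 90 of its 91 HAMSAB UMIs. The 9 below were Mt1, Ttr, Ggact, Fkbp2, Gm8797, Rpl12, Rpl23, Rpl38 and Rps21, of which Gm8797, Rpl12, Rpl38 and Rps21 were outside the naming rule, as was Igha, and are given because the counts are small. Intervals lay wholly above 0 in both libraries for 20 genes (1.64%) and wholly below for 39 (3.2%).

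Mt1, a metal-binding metallothionein, lay below insulin-rich barcodes in both libraries. Mt1 was at -1.24 (-1.61 to -0.87) in HAMS and -1.75 (-2.29 to -1.24) in HAMSAB, and its close relative Mt2 at -0.89 and -1.19. Fkbp2, a prolyl isomerase of the endoplasmic reticulum, was at -1.69 and -1.27, and the chaperone Hyou1 at -1.81 and -0.80. In HAMS, 145 of the 220 insulin-rich Hyou1 UMIs came from the 45 barcodes with 30% insulin or more. Hyou1 stood at 3759 CPM there, against 785 CPM from 10% to 15% insulin and 438 CPM from 7% to 10%. The same 45 barcodes held 53 of the 116 insulin-rich Mt1 UMIs. The list of unfolded protein and integrated stress response genes as a whole lay nearer 0, with medians of -0.04 and -0.12 over 22 genes and none 2-fold below in both libraries. Ttr, transthyretin, was at -1.49 and -1.27, the ferritin light chain Ftl1 at -1.08 and -0.96, and the protease inhibitor Cst3 at -0.77 and -0.87. Resp18, a granule protein, was at -0.69 and -1.08. Fau, which encodes a ribosomal protein, was at -1.16 and -0.88, Ggact at -1.66 and -1.03, and Tma7 at -1.03 and -0.997. Tma7 stood at 0.21 in HAMS once barcodes were thinned to 500 UMIs.

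Messages for small housekeeping proteins were lower as groups. Of 24 ribosomal protein genes measured, 17 were below insulin-rich barcodes in both libraries and 2 above, with median log2 ratios of -0.56 in HAMS and -0.47 in HAMSAB. Over all 2912 genes with at least 20 UMIs, 23.8% were below in both and 31.1% above, with medians of 0.12 and -0.02. Rpl23 stood at -1.04 and -1.94, and Rps29 at -1.62 and -1.53. Of 14 oxidative phosphorylation genes measured, 8 were below in both libraries and 2 above, with medians of -0.53 and -0.76. Cox8a, a subunit of complex IV, was at -1.13 and -1.66, and Uqcrq, of complex III, at -1.09 and -1.45.

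On CPM of all UMIs the median gene shifted to 0.52 in HAMS and 0.25 in HAMSAB, because insulin takes fewer UMIs in members. The ribosomal medians were then -0.15 and -0.20 and the oxidative phosphorylation medians -0.17 and -0.49, still below that of all genes. Without barcodes holding 2 or more immune UMIs, the ribosomal medians were -0.32 and -0.26.

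All 6 measured long noncoding RNAs of a list of 7 were above insulin-rich barcodes in both libraries, with medians of 0.86 in HAMS and 0.32 in HAMSAB. Kcnq1ot1, an imprinted transcript that silences its neighbours, was at 1.14 (0.77 to 1.53) and 0.91 (0.59 to 1.24). It lies antisense within Kcnq1, and how the counting used strand is not given in the sources used here. Malat1, a nuclear speckle RNA, was at 0.93 (0.85 to 1.01) in HAMS and 0.05 (-0.01 to 0.11) in HAMSAB, and Neat1, the scaffold of paraspeckles, at 0.61 and 0.13. Mitochondrially encoded RNA, a sign of RNA quality, divided the libraries in the same way: the median of 12 measured genes was 0.57 in HAMS and -0.10 in HAMSAB, with mt-Co1, a subunit of complex IV, at 0.78 (0.66 to 0.91) and 0.03 (-0.08 to 0.14). Its part in the values of the long noncoding RNAs was not tested. Malat1 varied widely among members, from 0% of a barcode's UMIs to 12.4% in HAMS and 12.7% in HAMSAB, with medians of 0.748% and 1.08%.

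Several protein-coding genes were above insulin-rich barcodes in both libraries. Kdm6b, which removes methyl groups from histone H3 lysine 27, was at 0.18 (0.04 to 0.32) in HAMS and 0.70 (0.51 to 0.89) in HAMSAB, but at -0.076 in HAMS among barcodes with at least 500 genes. Hnrnpa0, an RNA-binding protein, was at 0.86 and 0.71, Cpeb4, a regulator of translation, at 0.50 and 0.48, and Nktr at 0.45 and 0.28. Sod1, superoxide dismutase, was at 0.51 and 0.36. The ubiquitin ligase adaptor Dcaf8 was at 0.77 and 0.79, and Atxn1, Tsc22d2 and Actr2 lay between 0.38 and 0.76 in both libraries. The kinase Pim1 was at 0.28 and 0.62, but at -0.13 in HAMS among barcodes with at least 500 genes. By UMIs, Pim1 and Kdm6b ranked 5 and 6 in HAMS barcodes with under 1% insulin, and 4 and 7 in those of HAMSAB. The part of immune RNA in their ratios was not tested. Cd74 was at 0.75 (0.40 to 1.12) and 0.51 (0.10 to 0.93), and the immune marker sums given above moved with it.

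**Figure D4:**
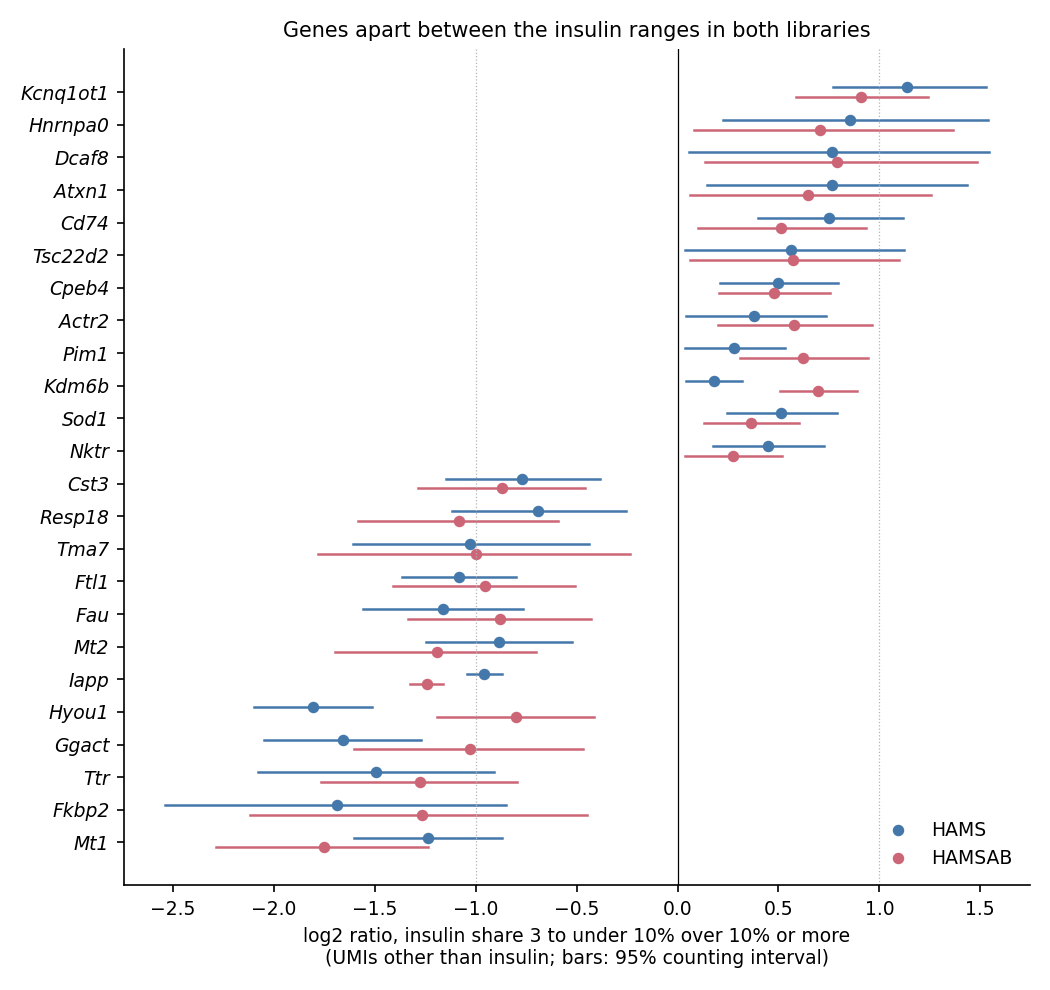
Log2 ratio of insulin-low over insulin-rich barcodes for the 24 genes farthest from 0 in both libraries by the interval bound nearest 0, with 95% counting intervals; dotted lines mark 2-fold. Kcnq1ot1 and 11 other genes lie right of 0 in both libraries, and Mt1, Fkbp2, Ttr, Iapp and 8 others lie left of it.

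Between the diets, insulin-low cells of HAMSAB held more RNA of several granule proteins and less of immediate early genes. Here ratios are log2 of HAMSAB over HAMS on CPM of all UMIs. Among the 2010 genes that reached 50 UMIs with both libraries summed, 31 (1.54%) were at least 2-fold higher in HAMSAB members and 36 (1.79%) at least 2-fold lower. Counting intervals lay wholly above 0 for 195 genes (9.7%) and wholly below for 180 (8.96%). Of all genes with at least 20 UMIs, 49.7% were above 0, and the median was -0.01. The insulin genes, bounded by the rule, were at 0.11 for Ins1 and 0.05 for Ins2, which stood at -0.020 among members with 5% insulin or more.

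Beta identity genes moved in both directions. Of 20 measured, 9 were higher and 11 lower in HAMSAB, with a median of -0.22. Mafa was at 1547 CPM in HAMS and 1786 CPM in HAMSAB (log2 ratio 0.21, 0.02 to 0.39), but at -0.040 among members with under 7% insulin. Slc2a2 was at 347 and 491 CPM (0.50, 0.13 to 0.87), Neurod1, an activator of the insulin gene, at 307 and 429 CPM (0.48, 0.08 to 0.88), and Prlr, the prolactin receptor, at 672 and 1130 CPM (0.75, 0.50 to 1.003). G6pc2 was at 1113 and 1384 CPM (0.31, 0.10 to 0.53). The intervals of these 5 genes lie above 0.

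Other identity genes were lower in HAMSAB members. Nkx6-1 was at 540 CPM in HAMS and 420 CPM in HAMSAB (-0.36, -0.73 to -0.01), but at 0.17 after thinning to 500 UMIs. Ucn3 was at 300 and 219 CPM (-0.45, -0.96 to 0.04). Pdx1, the master regulator of pancreas and beta cells, was found in 24 of 585 and 4 of 277 members, with 28 and 5 UMIs (-1.64, -3.37 to -0.24). Foxo1 had 24 and 5 UMIs (-1.41, -3.16 to 0.01) and Isl1 47 and 22 (-0.25, -1.05 to 0.51). Only Pdx1 and Foxo1 of the list were past 2-fold, both on few UMIs, where 4.88% of all genes with at least 20 UMIs were 2-fold lower and 3.72% 2-fold higher.

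Granule and secretion genes were mostly higher, with 18 of 24 above 0 and a median of 0.15. Iapp was at 6629 CPM (6380 to 6885) in HAMS and 8816 CPM (8432 to 9214) in HAMSAB (0.41, 0.33 to 0.50). Scg2, whose upstream stretch is printed above, was at 2058 and 3613 CPM (0.81, 0.67 to 0.95), and was found in 62.2% of HAMS and 76.2% of HAMSAB members. Thinned to 500 UMIs, it was found in 57.03% (51.8% to 62.2%) and 69.2% (62.5% to 75.4%). Pam, the enzyme that amidates peptide hormones such as the Iapp product, was at 7678 and 12747 CPM (0.73, 0.66 to 0.81).

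Of the 24 granule and secretion genes, 8 had intervals wholly above 0 and 3 wholly below. The granin Chga, the most abundant of them, took 1.41% of UMIs in HAMS members and 1.44% in HAMSAB members. Scg5, Cpe and Chgb, chosen after their values were seen, were higher in HAMSAB. The chaperone Scg5 was at 1321 and 2037 CPM (0.62), the carboxypeptidase Cpe at 801 and 1206 CPM (0.59) and the granin Chgb at 1678 and 2269 CPM (0.43), with intervals above 0. Ptprn2, a granule membrane protein and autoantigen, had 29 and 31 UMIs (0.95, 0.17 to 1.73), and the neuropeptide precursor Vgf 13 and 20 (1.47, 0.39 to 2.60). Snap25, of the fusion machinery, was at 0.24 (-0.04 to 0.53). Cplx2, which clamps vesicle fusion, was lower at 1178 and 728 CPM (-0.69, -0.96 to -0.43), as was Pcsk1n, an inhibitor of the convertase Pcsk1, at 1121 and 741 CPM (-0.60, -0.86 to -0.34).

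Genes of the endoplasmic reticulum and its stress responses were above 0 for 17 of 22 measured, with a median of 0.17. Dnajb9, a co-chaperone of the unfolded protein response, was at 590 and 1063 CPM (0.85, 0.58 to 1.11) and was found in 27.01% and 46.9% of members, or in 23.4% and 38.9% after thinning. Its main partner Hspa5 was at 3820 and 4404 CPM (0.21, 0.09 to 0.32), and the secreted factor Manf at 372 and 576 CPM (0.63, 0.28 to 0.98). Chac1, which degrades glutathione and is switched on by the integrated stress response, had 22 and 33 UMIs (1.43, 0.61 to 2.28). Sdf2l1 had 36 and 41 (1.04, 0.36 to 1.72), and Ssr4, a subunit of the complex at the protein-conducting channel, 54 and 75 (1.32, 0.80 to 1.86).

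Exceptions ran the other way. Hsp90b1, the chaperone GRP94, was at 2663 CPM in HAMS and 2260 CPM in HAMSAB (-0.24, -0.39 to -0.08). Ppp1r15a, which restores translation after stress, was at 389 and 246 CPM (-0.66, -1.13 to -0.21).

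Immediate early and dissociation stress genes were lower in HAMSAB members for 19 of 23 measured, with a median of -0.45, and 13 of their intervals lay wholly below 0. Fos was at 4495 CPM in HAMS and 2439 CPM in HAMSAB (-0.88, -1.02 to -0.74). It was found in 71.5% and 69.3% of members. Thinned to 500 UMIs, it was found in 66.7% (61.6% to 71.5%) and 54.98% (47.997% to 61.8%), with a mean of 3.19 and 2.17 UMIs per barcode that held it. Dusp1, a phosphatase that ends MAP kinase signalling, was at 1155 and 563 CPM (-1.04, -1.33 to -0.75), Jun at 2095 and 1331 CPM (-0.65), Btg2 at 3106 and 2050 CPM (-0.60) and Egr1 at 1998 and 1621 CPM (-0.30), each with an interval below 0. Npas4, an activity-dependent factor, had 30 and 5 UMIs (-1.74, -3.46 to -0.36).

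Heat shock genes were divided. Dnajb1 was at 816 and 456 CPM (-0.84, -1.18 to -0.52) and Hspa1a had 55 and 13 UMIs (-1.23, -2.23 to -0.34). Hsp90aa1 was higher at 1076 and 1353 CPM (0.33, 0.11 to 0.55), and so was the factor Klf6 at 369 and 509 CPM (0.46, 0.10 to 0.82). The median mitochondrial share given above was also lower in HAMSAB, and 12 of 13 mitochondrially encoded genes were below 0, with a median of -0.15. Of these, mt-Nd5 was at -0.52 (-0.79 to -0.25), but at 0.0082 among barcodes with at least 500 genes. The part of islet handling in these values was not tested.

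Interferon-induced genes outside the 8 used by the rule were still detectable and lower in HAMSAB members. Of 30 listed, 12 were measured, 11 were below 0 and 5 past 2-fold, with a median of -0.81. Gbp7, a guanylate-binding protein, was at 382 and 161 CPM (-1.25, -1.81 to -0.72), and Irf1, an interferon-induced transcription factor, at 203 and 130 CPM (-0.65, -1.31 to -0.02). Gbp3 had 62 and 12 UMIs (-1.52, -2.55 to -0.61), the MHC class I activator Nlrc5 60 and 16 (-1.06, -1.95 to -0.24) and the immunoproteasome subunit Psmb8 22 and 4 (-1.61, -3.61 to -0.05). Because the rule removes barcodes by interferon RNA, these are the levels left after that removal. Its limit of 1 raw UMI is stricter per UMI in HAMSAB members, which were deeper (median 673 UMIs against 574). The part of the limit in these ratios was not tested. In insulin-rich barcodes, chosen under the same limit, the list median was -1.09 over 7 measured genes. Guanylate-binding proteins are close relatives, and reads shared among them cannot be assigned with certainty.

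Antigen presentation by MHC class I had no common direction, with 4 of 9 genes above 0 and a median of -0.01. B2m, its light chain, was at 764 and 1058 CPM (0.47, 0.22 to 0.72). Glycolysis genes were lower for 6 of 8, with Gapdh at 392 and 264 CPM (-0.57, -1.03 to -0.13). Oxidative phosphorylation genes divided 11 to 11, and ribosomal protein genes 13 above to 11 below. Actin cytoskeleton genes were below 0 for 7 of 9. Actg1 was at 2011 and 1362 CPM (-0.56, -0.76 to -0.37) and Tpm3 at 528 and 353 CPM (-0.58, -0.97 to -0.20), and the list median was -0.36, or -0.22 among members with at most 1 immune UMI.

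Long noncoding RNA was higher for 4 of 6 genes, with a median of 0.34. Malat1 was at 19283 and 26217 CPM (0.44, 0.39 to 0.49), while Neat1 was at 858 and 715 CPM (-0.26, -0.54 to 0.01). Snhg11 had 40 and 50 UMIs (1.17, 0.54 to 1.81), of which up to 16 came from 1 barcode. Among apoptosis genes, 3 of 6 were above 0, with Trp53inp1, a target of p53, at 211 and 348 CPM (0.73, 0.26 to 1.19).

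The diets differ in the short-chain fatty acids they deliver, which act through receptors and on histone deacetylases. Of 8 such genes only 3 reached 20 UMIs. The acetate receptor Ffar2 had 12 and 8 UMIs (0.26, -1.23 to 1.68), Hdac1 30 and 22 (0.40, -0.46 to 1.24) and Hdac2 19 and 9 (-0.23, -1.56 to 0.99). No difference in these genes was detectable at this depth.

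Genes outside the lists were among those farthest apart. Riok1, a kinase of ribosome maturation, was at 240 and 603 CPM (1.33, 0.94 to 1.72) and was found in 14.0% and 30.7% of members, or in 12.1% and 19.9% after thinning. Nucb2, the nesfatin precursor, was at 131 and 322 CPM (1.29, 0.76 to 1.83), and Etl4 had 25 and 35 UMIs (1.33, 0.55 to 2.14). Lower in HAMSAB were Zdhhc2, a palmitoyltransferase, at 1408 and 728 CPM (-0.95, -1.21 to -0.70) and Impact, which restrains the amino acid sensor Gcn2, at 892 and 469 CPM (-0.93, -1.26 to -0.61). The kinase Mast3 was at 265 and 89.3 CPM (-1.57, -2.34 to -0.87), and the chromatin reader Brd2 at 240 and 103 CPM (-1.23, -1.95 to -0.56). The sulfotransferase Sult1c2 had 52 and 8 UMIs (-1.85, -3.14 to -0.77), and Ftl1 was at 595 and 326 CPM (-0.87, -1.27 to -0.48).

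Some of the largest ratios belonged to markers of other cells or depended on single barcodes. Jchain was at 3.43 (2.82 to 4.11), but at -1.73 (-7.25 to 1.32) without the barcode with most of its UMIs in each library. Lyz2, a macrophage lysozyme, was at -2.02 (-3.40 to -0.87), with 40 of 51 HAMS UMIs in 1 barcode, and at -2.61 (-8.03 to 0.18) without the top barcodes. The alpha cell markers Gc and Ttr were at 1.65 (0.79 to 2.54) and 1.03 (0.47 to 1.61), and all 4 alpha markers counted, which leave out Gcg as a gene of the rule, were above 0. Gcg, glucagon itself, went the other way, with 198 UMIs in 66 HAMS members and 53 in 11 HAMSAB members (-1.05, -1.52 to -0.61), of which 48 and 34 came from 1 barcode each, but was at 0.14 among members with under 1% of each other hormone. Spp1, a ductal marker, was at 1.53 (0.68 to 2.41), with 13 of 20 HAMS UMIs in 1 barcode, and at 2.79 (1.56 to 4.24) without the top barcodes. Cd74 was at -0.48 (-0.77 to -0.20), but at 0.036 among members with 5% insulin or more.

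**Figure D5:**
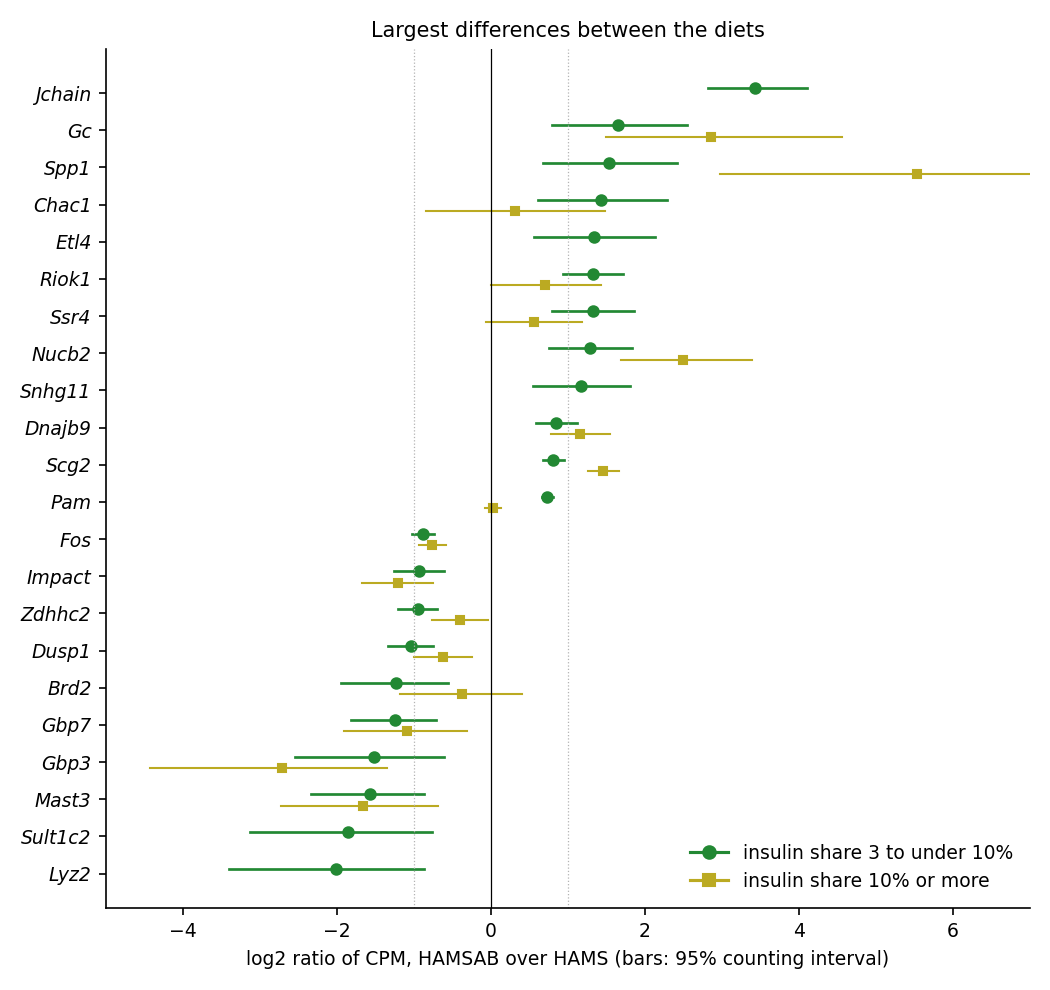
Log2 ratio of CPM, HAMSAB over HAMS, for the 12 highest genes and 10 of the 12 lowest in insulin-low barcodes by the interval bound nearest 0 (circles), beside insulin-rich barcodes (squares, drawn where both libraries have UMIs and they sum to at least 20); bars are 95% counting intervals, the Spp1 bar runs past the axis, and dotted lines mark 2-fold. Fos, Dusp1 and Impact lie left of 0 in both groups, Scg2 and Dnajb9 right of 0 in both, and Pam is right of 0 in insulin-low barcodes with its square near 0.

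Set beside insulin-rich barcodes of the same libraries, several of these differences were shared and some were not. On non-insulin UMIs, the diet ratio of Fos in members minus that in insulin-rich barcodes was 0.01 (-0.20 to 0.23), and that of Gbp7 was -0.02 (-0.93 to 0.89). Fos did not stand for its list: on all UMIs the immediate early median was -0.45 in members and 0.22 in insulin-rich barcodes. Over all genes with at least 20 UMIs the medians were -0.01 and 0.27. The list was thus below all genes in members and near them in insulin-rich barcodes. On non-insulin UMIs, the difference of the diet ratios was -0.45 (-0.75 to -0.15) for Jun and -0.36 (-0.66 to -0.07) for Egr1. It was -1.34 (-2.54 to -0.15) for Hspa1a and -1.11 (-1.86 to -0.36) for Klf6. Iapp differed less between the diets in members, by -0.29 (-0.40 to -0.17), as did Scg2, by -0.51 (-0.76 to -0.27), Nucb2, by -1.06 (-2.01 to -0.12), and Malat1, by -0.88 (-0.98 to -0.78). Pam differed more in members, by 0.84 (0.72 to 0.97). On all UMIs Hyou1 was at 0.09 (-0.27 to 0.45) in members. It was at -0.77 (-1.10 to -0.45) in insulin-rich barcodes, where 145 of 220 HAMS UMIs came from barcodes with 30% insulin or more. These are differences between 2 pairs of cell groups from the same 2 libraries, with counting intervals and no test.

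The authors' deposited table of beta cells lists 115 genes, 54 higher and 61 lower in HAMSAB. Each of them had at least 50 UMIs in members, and 114 had the same sign there. The exception was Lbh, named for that reason. That table was computed from cells of the same 2 libraries, so the shared sign is no independent support. In it Scg2 (log2 fold change 0.76), Dnajb9 (0.66) and Iapp (0.66) were highest, and Dusp1 (-0.93), Impact (-0.91) and Dnajb1 (-0.84) lowest, as the authors' deposited table gives them.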

How the data were processed

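Islets of NOD mice on 2 diets were captured with a droplet 3' kit, per the labels' protocols. Raw counts of UMIs per gene and barcode, 32285 genes, were deposited, written by Cell Ranger 5.0.0 per the file headers; Seurat and the builds mm10 and GRCm38 are named in the submitters' processing notes. How cells were called, the annotation release, the use of strand and any earlier removal of doublets are unstated there. The deposited table of beta cells holds a log2 fold change and p-value per gene, as the authors computed them; the other 7 comparison tables were not used here. The libraries held 4352 HAMS barcodes (3599756 UMIs) and 5022 HAMSAB barcodes (4254040 UMIs).

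Each sample's group came from its diet label. UMIs were summed over members per library and divided by the group's total (CPM). Intervals are exact Poisson for CPM, exact conditional binomial for log2 ratios and exact Clopper-Pearson for shares, all 95% and for counting error only. The difference of 2 log2 ratios has a normal interval from the counts. Thinning drew 500 UMIs per barcode (seed 1). Barcodes removed for under 200 genes numbered 165 in HAMS and 391 in HAMSAB, and 2 and 3 were removed for mitochondrial RNA. No doublet caller was run, and all other barcodes were kept. Calls are ratios of at least 2-fold on at least 50 UMIs, and lists use genes with at least 20. Scripts were tested on simulated data and ran on Python 3.11.15, numpy 2.4.6, scipy 1.17.1, pandas 2.3.3 and matplotlib 3.10.9.

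The members, the 15 gene lists and the 10 marker lists were chosen with earlier results of these data known. Named genes are the 12 highest and 12 lowest of each comparison by the interval bound nearest 0 (mitochondrial, ribosomal, Gm, Rik, immunoglobulin, haemoglobin and rule genes left out), the up to 2 highest and 2 lowest of each list, the 2 most abundant markers of other cell types, Mafa, Slc2a2, Ucn3, Nkx6-1 and Iapp, and 3 genes in each direction from the authors' table. G6pc2, Neurod1, Igha, Jun, Egr1, Btg2, Chga, Chgb, Cpe, Scg5, Hspa5 and Manf, and which of the rule's genes are described, were chosen after values were seen. Some genes that the rule selects are not reported here. Promoters came from RefSeq; 3 were matched, and no entry was found for Ins2 and Mafa. The alternatives numbered 14, plus 1 chosen after seeing the data (leaving out the barcode with most UMIs of a gene).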

Additional observations from a re-analysis of the deposited data

Results flagged for a closer look

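The diet ratios of 3 flagged genes had opposite signs in insulin-low and insulin-rich barcodes, with both counting intervals away from 0 on non-insulin UMIs. None of these differences was tested, because each diet has 1 library. Pam was at 0.74 in insulin-low and -0.11 in insulin-rich barcodes, a difference of 0.84 (0.72 to 0.97). On all UMIs Pam was at 0.02 (-0.08 to 0.13) in insulin-rich barcodes, so its opposite sign depended on the scale. Sdf2l1, a chaperone cofactor of the endoplasmic reticulum, was at 1.04 and -1.01, a difference of 2.05 (1.19 to 2.91). Hsp90b1 was at -0.23 and 0.38, a difference of -0.62 (-0.87 to -0.36). Other described genes had opposite signs too. On all UMIs mt-Co1 was at -0.15 (-0.23 to -0.06) in insulin-low and 0.74 (0.60 to 0.88) in insulin-rich barcodes. Its difference on non-insulin UMIs was -0.75 (-0.92 to -0.59). The rule genes Ins1 (0.11 and -0.34) and Ins2 (0.05 and -0.39) also had opposite signs on all UMIs. Both groups were cut by the share of these 2 genes, so their ratios depend on the cut and are no separate result.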

How the results depend on the processing

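No paired analysis was possible because each diet has 1 library and no replicate to leave out. With 1 library a diet and a median of 574 and 673 UMIs per member, genes under 20 UMIs were not compared.

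Members were 13.98% of kept HAMS and 5.985% of kept HAMSAB barcodes. They were 10.7% and 5.01% with insulin from 5%, 8.08% and 3.11% with insulin under 7%, and 10.8% and 5.08% with no interferon UMI. With at most 1 immune marker UMI the HAMS share was 12.2%, and with at least 500 genes per barcode the HAMSAB share was 7.57%.

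The 31 genes at least 2-fold higher in HAMSAB became 18 with at least 500 genes per barcode, 17 with insulin from 5%, 14 with insulin under 7%, 19 with at most 1 immune marker UMI, 8 with thinning, 161 with at least 20 UMIs and 8 with at least 100 UMIs. The 36 lower became 23 with at least 500 genes, 23 with insulin under 7%, 22 with thinning, 211 at 20 UMIs and 10 at 100 UMIs.

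The 1 gene above insulin-rich barcodes became 2 with at least 500 genes, 0 with insulin from 5%, 4 with insulin under 7%, 0 with no interferon UMI, 0 with at most 1 immune UMI, 10 on all UMIs, 0 with thinning, 18 at 20 UMIs, 0 at 100 UMIs and 10 against barcodes with 20% insulin or more. The 9 below became 3 with other hormones under 1%, 5 with no interferon UMI, 1 with at most 1 immune UMI, 3 with equal weights, 1 on all UMIs, 1 with thinning, 23 at 20 UMIs, 5 at 100 UMIs and 17 against barcodes with 20% insulin or more. Fewer or more genes were tested at 100, 20 and thinned UMIs; otherwise the cause was not tested.

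Signs turned for few named genes. Between the diets, with insulin from 5%, Cd74 was at 0.036, Ins2 at -0.020 and Jchain at -3.94, and without its top barcodes Jchain was at -1.73. Mafa was at -0.040 with insulin under 7%, Nkx6-1 at 0.17 with thinning, mt-Nd5 at 0.0082 with at least 500 genes and Gcg at 0.14 with other hormones under 1%. The ratio of mt-Co1 was -0.15, but 0.065 with at least 500 genes and 0.11 with insulin under 7%. Against insulin-rich barcodes in HAMS, Fos was at 0.18 on all UMIs and 0.25 against 20% insulin or more, Hsp90b1 at -0.025, -0.047 and -0.0073 with other hormones under 1%, at most 1 immune UMI and equal weights, Kdm6b at -0.076 and Pim1 at -0.13 with at least 500 genes, Pam at 0.0496 on all UMIs and Tma7 at 0.21 with thinning. In HAMSAB, Egr1 was at 0.0081 with no interferon UMI, Fos at 0.0615 on all UMIs, Jchain at -4.34 with insulin from 5%, and Gcg at -0.32 with insulin from 5% and -0.62 with equal weights. Of the diet ratios of named genes under all alternatives, 1115 stayed within the reported interval, 60 moved past it and 10 turned. Ratios over insulin-rich barcodes moved more often: 1969 stayed, 304 moved past the interval and 14 turned.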
